A study of Mus musculus with 6 samples.

Results

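The NADPH oxidases, the dual oxidase and the inducible nitric oxide synthase of the mouse colon were described in colitis mice receiving berberine (BBR) and colitis mice receiving sulfasalazine (SASP). The set was chosen by name and held 9 genes of the 18268 in the table: Duox2, Duoxa2, Nox1, Noxo1, Noxa1, Nos2, Cybb, Cyba and Ncf1. All 9 were found and all 9 passed the filter on low values, which kept genes with an FPKM (read fragments corrected for transcript length and for the number of reads mapped) of 1 or more in 3 or more samples. The labels give 1 tissue name, colon and rectum together, for all samples, whereas the text of the study speaks of rectal tissue for its BBR sequencing and of colon for its SASP sequencing. A difference in region between the groups therefore cannot be told apart from a difference between the drugs. The mice were male C57BL/6, 8 to 10 weeks of age. Every mouse drank 2.5% dextran sulfate sodium (DSS), which damages the colon epithelium and so induces colitis, for 7 days. Gavage over 6 days delivered BBR, a plant alkaloid, at 100 mg/kg to 3 mice and SASP, an aminosalicylate prodrug, at 200 mg/kg to the other 3. No healthy or untreated colitis samples were analysed here, and each fold change therefore sets one drug against the other.

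NADPH oxidases carry electrons from NADPH across a membrane to oxygen and release superoxide or hydrogen peroxide. In the colon, Nox1 is the catalytic subunit of the epithelial superoxide-producing enzyme and works with the membrane partner Cyba (p22phox), the organizer Noxo1 and the activator Noxa1. Duox2 releases hydrogen peroxide at the luminal surface of the epithelium and needs its maturation factor Duoxa2 to leave the endoplasmic reticulum. Cybb (gp91phox) is the catalytic subunit of the phagocyte oxidase, which uses the same Cyba and the organizer Ncf1 (p47phox). Nos2 makes nitric oxide from arginine and is induced by interferon gamma and bacterial products.

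The promoters of Duox2 and Duoxa2 are shown because these genes lie head to head on opposite strands and their values varied together over the mice, and that of Nox1 because its values did not follow theirs. The windows reach from 250 bases before to 50 bases after the transcription start, in 5′ to 3′ direction of each gene, and were taken from RefSeq on GRCm38.p6, whereas the processing notes of the files name mm9. The Duox2 window is chr2:122298178-122298477 on the minus strand, the Duoxa2 window chr2:122298650-122298949 on the plus strand and the Nox1 window chrX:134111805-134112104 on the minus strand. Capitals mark matches to the motifs named below.
Duox2: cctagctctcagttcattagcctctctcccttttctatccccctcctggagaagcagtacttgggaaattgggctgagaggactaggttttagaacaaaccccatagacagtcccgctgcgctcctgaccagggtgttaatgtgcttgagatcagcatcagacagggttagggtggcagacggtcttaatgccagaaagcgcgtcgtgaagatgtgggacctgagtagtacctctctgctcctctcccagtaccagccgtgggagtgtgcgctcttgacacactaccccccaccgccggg
Duoxa2: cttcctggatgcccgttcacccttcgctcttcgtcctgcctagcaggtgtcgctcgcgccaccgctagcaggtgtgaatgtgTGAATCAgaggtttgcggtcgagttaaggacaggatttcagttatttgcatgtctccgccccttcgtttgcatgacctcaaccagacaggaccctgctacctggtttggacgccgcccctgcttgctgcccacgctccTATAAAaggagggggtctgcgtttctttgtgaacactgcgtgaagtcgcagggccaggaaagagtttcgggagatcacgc
Nox1: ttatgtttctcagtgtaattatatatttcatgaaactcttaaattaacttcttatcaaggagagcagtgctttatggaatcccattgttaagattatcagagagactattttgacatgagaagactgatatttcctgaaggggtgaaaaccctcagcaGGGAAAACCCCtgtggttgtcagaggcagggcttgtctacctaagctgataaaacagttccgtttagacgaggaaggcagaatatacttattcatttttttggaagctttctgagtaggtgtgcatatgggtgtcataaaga

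The starts of Duox2 and Duoxa2 lie 673 bases apart, and 172 bases separate their windows. A window was found for 8 of the 9 genes, all except Nos2. Both strands were searched for 5 motifs. The TATA box was searched as TATAAA. The AP-1 motif was searched as TGANTCA. The gamma-activated site (GAS) was searched as TTCNNNGAA. The interferon-stimulated response element (ISRE) was searched as TTTC on either side of 2 free bases. The kappaB motif was searched as GGG, then 5 free bases, then CC. Duoxa2 held 1 TATA box and 1 AP-1 match, which 13.6% and 7.81% of all 32851 windows also held. Duox2 held 0 of the 5 motifs, and Nox1 held 2 overlapping kappaB matches, a motif present in 50.8% of windows. Of the other members, Cyba held 5 kappaB matches, Ncf1 4, Noxa1 2, and Noxo1 and Cybb 1 each. Cybb also held 1 AP-1 match. ISRE matches, present in 3.44% of windows, numbered 3 in Cybb and 1 in Ncf1. A GAS match, present in 8.30% of windows, was found in Ncf1 and overlapped its ISRE match.

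Sample depth was similar in both groups, at approximately 16400000 to 18200000 reads. BBR mouse 3 stood apart from the other BBR mice on the second principal component, which held 25.4% of the variance, so results for the 9 genes are given with and without it. It was singled out from these same values. Fits without it set 2 BBR mice against 3 SASP mice and are a description, not a separate test. Leaving it out raised the count of called genes from 1069 to 4018 over all genes tested. Markers of the labelled tissue were present in all samples, with the 11 colorectal markers summing to 4660 to 8430 FPKM in BBR and 3820 to 5380 FPKM in SASP mice. Smooth muscle markers summed to 3180, 3400 and 7410 FPKM in BBR mice 1, 2 and 3 and to 863 to 2620 FPKM in SASP mice. Higher in BBR were 10 of 10, with 0 past the adjusted threshold in limma. At an unadjusted p under 0.05 there were 8 of the 10, beside 3837 of all 12072 genes tested at 0.05 or less. Des, Acta2 and Smtn, which encode contractile or cytoskeletal proteins, were at 1.52, 1.4 and 1.24 (adjusted p = 0.0693, 0.0780 and 0.0869). With the mean of these markers as a covariate, Duox2, Duoxa2, Nos2 and Nox1 were at -2.96, -3.64, -5.74 and -0.69, Cybb and Ncf1 were both at -0.25, and Cyba, Noxo1 and Noxa1 were at -0.31, -0.14 and 0.49. In that fit 0 of the 9 genes were called, and 18 of all genes tested. In bulk tissue, fewer cells of a type and less RNA per cell cannot be told apart.

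Mean levels of Duox2, Duoxa2, Nos2 and Nox1 were 2.34-fold to 8.47-fold higher in SASP than in BBR mice. However, no gene of the set passed the threshold in the main fit, with all 6 mice, equal weights and no rescaling. BBR mouse 3 was far above the other BBR mice in Duox2, Duoxa2 and Nos2 and far below them in Nox1. The set was chosen with earlier results of these data known, so its counts are a description beside those of all genes. On the log2(FPKM + 1) scale, 8 of the 9 genes were lower in BBR than in SASP mice, where 39.2% of the 12072 genes tested were lower. At an adjusted p-value under 0.05 (limma, Benjamini-Hochberg over all genes tested), 0 of the 9 were called, against 8.86% of all genes. At an unadjusted p under 0.05, 6 of the 9 were lower in BBR, against 13.4% of all genes. Without BBR mouse 3, 5 of the 9 passed the adjusted threshold as lower (Duox2, Duoxa2, Nos2, Nox1 and Cyba), against 11.5% of all genes. The median log2 fold change of the 9 genes was -0.64 with all mice and -0.50 without BBR mouse 3, and that of all genes tested 0.10 and 0.16. Fits that left out any other single mouse called 0 of the 9.

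**Figure D1:**
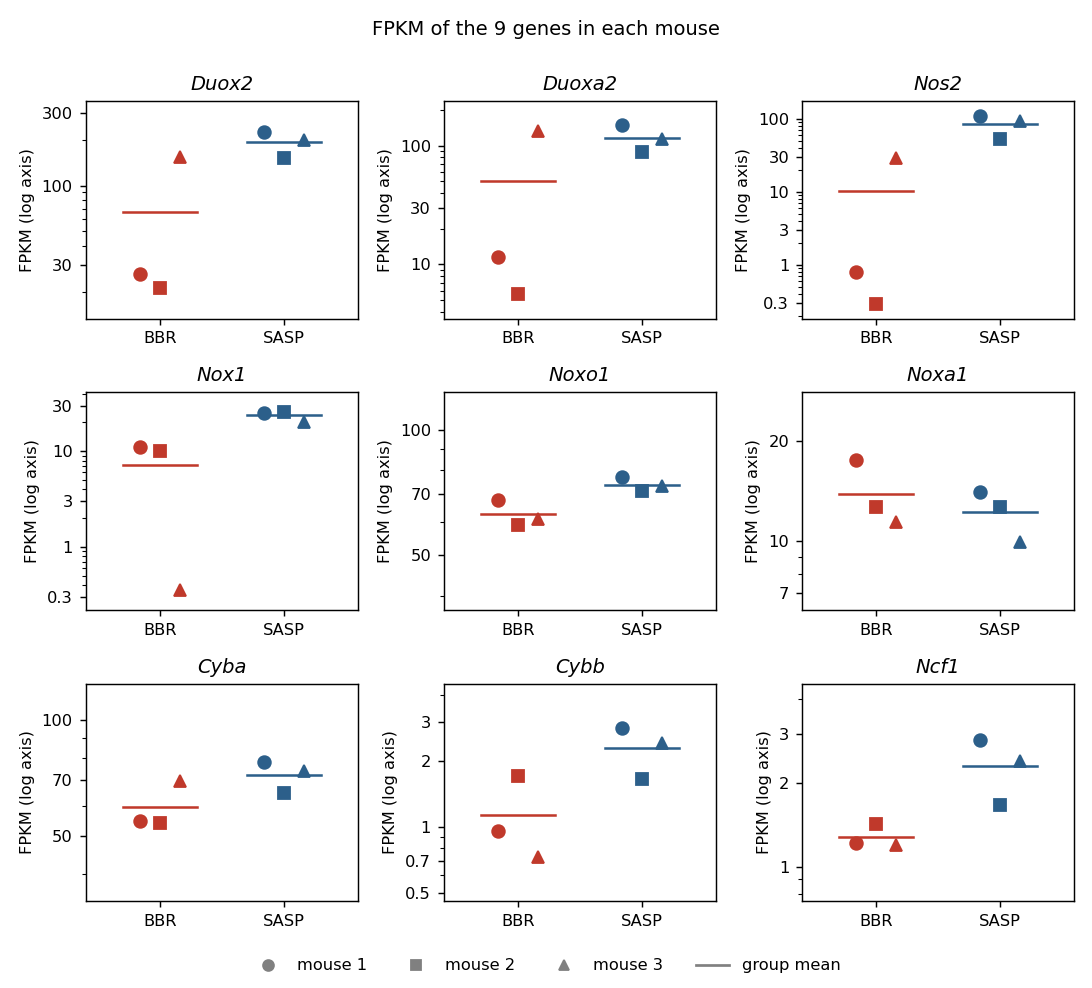
FPKM of the 9 genes (log axes) in the 3 BBR (red) and 3 SASP (blue) mice, 1 symbol per mouse, with a line at the mean of each group. For Duox2, Duoxa2 and Cyba the triangle of BBR mouse 3 lies at the SASP level, and for Nox1 it lies at 0.35 FPKM, below all other mice.

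Duox2 (Gene ID 214593), the peroxide-producing oxidase of the epithelial surface, was at 26.3, 21.3 and 154 FPKM in BBR mice 1, 2 and 3 and at 226, 152 and 199 FPKM in SASP mice 1, 2 and 3. BBR mice 1 and 2 were thus far below every SASP mouse, whereas BBR mouse 3 lay inside the SASP range. The means were 67.2 ± 75.3 FPKM (SD, n = 3) with BBR and 192 ± 37.4 FPKM (SD, n = 3) with SASP. The log2 fold change was -2.06 (SE 0.69, 95% interval -3.69 to -0.44), which did not pass the threshold (limma adjusted p = 0.0957). Without BBR mouse 3 it was -2.95 (SE 0.18, limma adjusted p = 0.000959).

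Duoxa2 (66811), the maturation factor of Duox2, was likewise low in BBR mice 1 and 2 only. Its values were 11.6, 5.60 and 133 FPKM (BBR) and 149, 88.2 and 113 FPKM (SASP), so BBR mouse 3 exceeded SASP mice 2 and 3. The log2 fold change was -2.37 (SE 1.01, 95% interval -4.77 to 0.03, limma adjusted p = 0.161), and -3.66 (SE 0.32, adjusted p = 0.00178) without BBR mouse 3. Relative to its oxidase, Duoxa2 was at 0.440, 0.263 and 0.861 times the FPKM of Duox2 in BBR mice and at 0.662, 0.581 and 0.568 times in SASP mice. The ratio in BBR mice therefore lay on both sides of the narrow SASP range; with 3 mice a group the smallest two-sided p of an exact permutation test is 0.1. Cyba, the partner of Nox1 and Cybb, shared this arrangement, with BBR mice 1 and 2 below every SASP mouse, and BBR mouse 3 at or above the lowest of them. It held for 3 of the 9 genes and for 4.49% of all genes tested, and was described after the values were seen.

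Nos2 (18126), the inducible nitric oxide synthase, had the largest fold difference of the set. It was at 0.80, 0.29 and 29.25 FPKM (BBR) and 110, 52.7 and 94.2 FPKM (SASP). The groups did not overlap, but BBR mouse 3 was closer to the lowest SASP mouse than to the other BBR mice. The means were 10.1 ± 16.6 and 85.6 ± 29.6 FPKM (SD, n = 3 each), 8.47-fold higher in SASP mice. With a log2 fold change of -4.33 (SE 1.12, 95% interval -6.98 to -1.68), Nos2 had the smallest adjusted p of the set, 0.0587 in limma, and did not pass the threshold. Median-ratio scaling of the samples, which called 1 of the 9 genes, took it past the threshold at -4.39. Without BBR mouse 3, the mean of BBR mice 1 and 2 was 0.545 FPKM and the log2 fold change -5.76 (SE 0.32, limma adjusted p = 0.000840). At the approximate depth, the values of BBR mice 1 and 2 correspond to 56 and 20 reads, and those of the other mice to 2060 to 8167 reads.

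**Figure D2:**
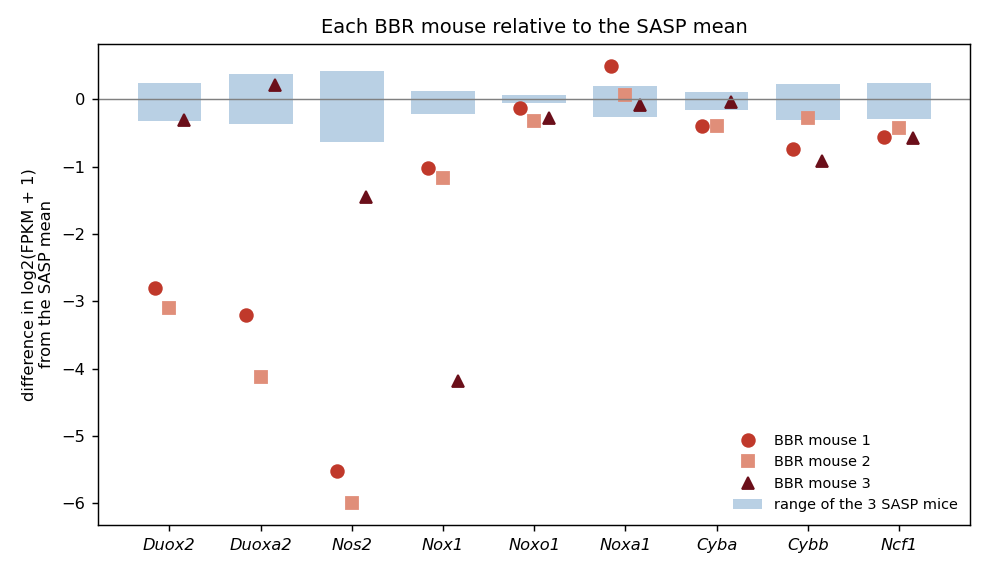
Difference of each BBR mouse from the SASP mean in log2(FPKM + 1), for each gene, with the range of the 3 SASP mice as a bar. BBR mouse 3 lies within the SASP range for Duox2 (-0.30) and Duoxa2 (0.22) and far below it for Nox1 (-4.19), where BBR mice 1 and 2 are at -1.02 and -1.17.

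Nox1 (237038), the catalytic subunit of the epithelial superoxide source, had the opposite order within the BBR group. It was at 11.2, 9.97 and 0.35 FPKM (BBR) and 25.3, 25.9 and 20.2 FPKM (SASP). All BBR values lay below all SASP values, and BBR mouse 3, the mouse with SASP-like Duox2, was lowest by far. The log2 fold change was -2.13 (SE 0.79, 95% interval -4.00 to -0.26, limma adjusted p = 0.121). Without BBR mouse 3 the difference was smaller but passed the threshold (-1.09, SE 0.13, limma adjusted p = 0.00385). The value of BBR mouse 3 corresponds to about 15 reads, against 419 to 1209 reads in the other mice.

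Few genes shared this drop. BBR mouse 3 was at least 10-fold below the lowest of the other 5 mice in 8 of the 12072 genes tested (0.0663%), of which Nox1 was 1. Another of the 8, chosen after its values were seen, was Cldn2, a claudin that forms pores in tight junctions, at 23.9, 24.3 and 0.41 FPKM (BBR) and 22.5 to 27.9 FPKM (SASP). In BBR mice 1 and 2 Cldn2 was at the SASP level, unlike Nox1. The gene models of Nox1 and its neighbour Cstf2 overlap in RefSeq, and strand was not stated for the counting, so reads of the overlap cannot be told apart.

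The cytosolic partners of Nox1 differed far less between the groups, and neither had the drop of Nox1 in BBR mouse 3. Noxo1 (71893), the organizer, was at 67.8, 59.1 and 61.2 FPKM (BBR) and 76.8, 71.4 and 73.2 FPKM (SASP). The groups did not overlap, but the difference was small, with a log2 fold change of -0.23 (SE 0.10, 95% interval -0.46 to -0.01, limma adjusted p = 0.150), or -0.22 (adjusted p = 0.105) without BBR mouse 3. Noxa1 (241275), the activator, was at 17.6, 12.7 and 11.4 FPKM (BBR) and 14.0, 12.7 and 9.95 FPKM (SASP). Its groups overlapped, and the log2 fold change of 0.16 (95% interval -0.29 to 0.61, limma adjusted p = 0.585) was within the spread between mice and was -0.01 without BBR mouse 1 and 0.28 (adjusted p = 0.267) without BBR mouse 3. The gene models of Noxa1 and Entpd8 overlap in RefSeq. Nox1 was at 0.165, 0.169 and 0.00572 times the FPKM of Noxo1 in BBR mice and at 0.329, 0.363 and 0.275 times in SASP mice, and the catalytic subunit was lower relative to its organizer in all 3 BBR mice.

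Cyba (13057), the membrane partner shared by Nox1 and Cybb, was at 54.7, 54.2 and 69.7 FPKM (BBR) and 77.8, 64.6 and 74.0 FPKM (SASP). Its log2 fold change was -0.28 (SE 0.13, 95% interval -0.60 to 0.04, limma adjusted p = 0.201), and it passed the threshold without BBR mouse 3 (-0.39, limma adjusted p = 0.0279).

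The phagocyte subunits were low in all mice. Cybb (13058), the catalytic subunit, was at 0.96, 1.71 and 0.73 FPKM (BBR) and 2.82, 1.65 and 2.42 FPKM (SASP), with overlapping groups and a log2 fold change of -0.64 (SE 0.22, 95% interval -1.16 to -0.11, limma adjusted p = 0.105). Ncf1 (17969), its organizer, was at 1.22, 1.43 and 1.2 FPKM (BBR) and 2.85, 1.67 and 2.40 FPKM (SASP). The Ncf1 groups did not overlap, and the log2 fold change was -0.52 (SE 0.17, 95% interval -0.92 to -0.12, limma adjusted p = 0.0929). With a pseudocount of 0.1 Cybb was at -1.01 and Ncf1 at -0.77, and neither was called. For both genes BBR mouse 3 sat with the other BBR mice, and leaving it out did not bring either past the threshold (-0.50 and -0.49, limma adjusted p = 0.128 and 0.0898). The RefSeq model of Cybb overlaps Gm33784 and that of Ncf1 overlaps LOC115490142. In all, the groups did not overlap for 4 of the 9 genes, each lower in BBR (Nos2, Nox1, Noxo1 and Ncf1), against 16.6% of all genes tested.

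**Figure D3:**
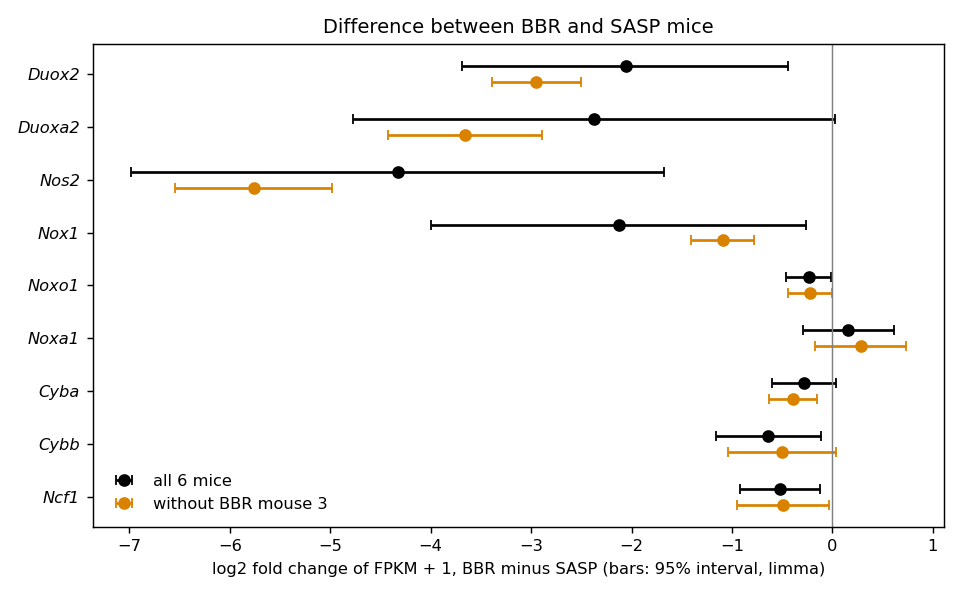
Log2 fold change of FPKM + 1 (BBR minus SASP) with its 95% interval from limma, for all 6 mice (black) and without BBR mouse 3 (orange). Without it the intervals of Duox2, Duoxa2 and Nos2 narrow and move away from 0, and that of Nox1 narrows around -1.09.

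The order of levels differed between the groups. In SASP mice Duox2 was highest (median 199 FPKM) and its range lay above that of all other members. Duoxa2, Nos2, Cyba and Noxo1 followed with medians of 113, 94.2, 74.0 and 73.2 FPKM, and neighbours in this order overlapped. Nox1 (25.3 FPKM) and Noxa1 (12.7 FPKM) came next, each apart from its neighbours, and Cybb and Ncf1 (2.42 and 2.40 FPKM) were last and overlapped. In BBR mice Noxo1 and Cyba led with overlapping ranges (medians 61.2 and 54.7 FPKM), followed by Duox2, Noxa1, Duoxa2 and Nox1 (26.3, 12.7, 11.6 and 9.97 FPKM) and by Ncf1, Cybb and Nos2 (1.22, 0.96 and 0.80 FPKM). Nos2 thus had the third median of the set under SASP and the lowest under BBR. All BBR neighbours overlapped except Duox2 and Noxa1.

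Genes with a pattern most like a member were sought by Pearson's r of log2(FPKM + 1) over the 6 mice. The search covered tested genes with a mean FPKM at or above the median of 10 (6030 genes). Few mice set these r values. BBR mice 1 and 2 were far below all others in Duox2 and Nos2, and BBR mouse 3 was in Nox1. Nearest to Duox2 were Misp, Iqgap2 and Map2k4 (r of 0.995, 0.994 and 0.994), and nearest to Nos2 were Map2k4, St14 and Fam3b (0.999, 0.997 and 0.997). Pearson's r takes no account of the size of a difference. Map2k4, the nearest to Nos2, was at 16.11, 15.68 and 20.35 FPKM (BBR) and 22.67, 21.02 and 22.07 FPKM (SASP), a far smaller difference than that of Nos2. Fam3b was at 90.7, 76.0 and 179 FPKM (BBR) and 269, 221 and 236 FPKM (SASP). Nearest to Nox1 were Stoml2, Msra and Npm1 (0.996, 0.995 and 0.994), with Npm1, a nucleolar protein gene, at 194, 191 and 93.8 FPKM (BBR) and 245, 226 and 224 FPKM (SASP). Nearest to Cybb were Clu, Hpf1 and C1ra (0.987, 0.986 and 0.985). Between members r was 0.99 for Duox2 with Duoxa2 and with Nos2, and 0.09 for Duox2 with Nox1.

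Genes that work beside these enzymes were grouped in 4 lists. Of the listed oxidase partners and relatives, 13 were in the table and 10 were tested, with a median log2 fold change of -0.01. None of the 10 passed the adjusted threshold in limma (0 genes), against 4 at an unadjusted p under 0.05. Of all 12072 genes tested, 3837 had an unadjusted limma p of at most 0.05. Sh3pxd2a, an adaptor, was at 0.73, and the GTPase Rac1 and the phagocyte subunit Ncf4 were at -0.30 and -0.62, short of the threshold (adjusted p = 0.0608, 0.0899 and 0.104). The alternative catalytic subunits Duox1 and Nox4 were under 1 FPKM in all mice and were not tested, and so was Duoxa1.

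Of 16 genes of nitric oxide and arginine metabolism, 12 were tested and 0 passed the adjusted threshold in limma. At an unadjusted p under 0.05 there were 4 of the 12, beside 3837 of all 12072 genes tested at 0.05 or less. The smallest p-values were those of the arginase Arg2, the cofactor enzyme Pts and the arginine transporter Slc7a1 (adjusted p = 0.0552, 0.0671 and 0.0799). Their log2 fold changes were 0.62, 0.35 and -0.47, and the median of the list was 0.05. Gch1, which makes the cofactor of nitric oxide synthases, was at 12.04, 9.29 and 27.7 FPKM (BBR) and 18.3 to 20.7 FPKM (SASP). It was chosen after its values were seen, and BBR mouse 3 was again the highest of its group.

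All 16 enzymes that remove superoxide and peroxide were tested, with a median of 0.10. Gpx2, the gastrointestinal glutathione peroxidase, fell to 171, 167 and 173 FPKM in BBR from 644, 728 and 439 FPKM in SASP mice, 3.55-fold lower in the mean (-1.79, SE 0.19, limma adjusted p = 0.00707). Here BBR mouse 3 lay with the other BBR mice. The call was lost without SASP mouse 1 (adjusted p = 0.0520) and with the smooth muscle covariate (adjusted p = 0.110). The lipid peroxide remover Gpx4, its relative Gpx8 and the peroxiredoxin Prdx6 were at 0.48, 0.71 and 0.75 (adjusted p = 0.0645, 0.0660 and 0.0846).

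Signals known to induce Nos2 or Duox2, with receptors and regulators of their pathways, formed the fourth list. Of its 18 genes 13 were tested, with a median of -0.31. Past the threshold were 3 as lower and 0 as higher, against 608 and 461 of all 12072 genes tested. Ifng, Il6, Il17a, Il22 and Nod2 were below the filter and not tested. Irf1, an interferon-induced transcription factor, was at 135, 116 and 128 FPKM (BBR) and 422, 329 and 484 FPKM (SASP). It was lower in BBR by 1.68 on the log2 scale (SE 0.16, limma adjusted p = 0.00478). Irf1 stayed past the threshold whichever single mouse was left out, but not with the smooth muscle covariate (adjusted p = 0.0986). BBR mouse 3 lay with the other BBR mice in Irf1, and above them in Nos2. Tnf was at 1.02, 0.82 and 6.33 FPKM (BBR) and 23.0, 14.9 and 33.4 FPKM (SASP) (-2.98, SE 0.56, limma adjusted p = 0.0268), so that BBR mouse 3 was the highest of its group, as in Nos2. The adaptor Myd88 was lower in BBR by 0.65 on the log2 scale (limma adjusted p = 0.0362). The calls of Tnf and Myd88 did not survive leaving out BBR mouse 1, BBR mouse 2 or a SASP mouse (adjusted p of up to 0.117 and 0.148). They were also lost with no filter on low values (adjusted p = 0.0509 and 0.0534), with the smooth muscle covariate (0.153 and 0.222) and with the epithelial covariate (0.117 and 0.136). Ifngr2, Nfkb1 and Rela were at 0.45, -0.35 and 0.25 (adjusted p = 0.0734, 0.128 and 0.176), and Ifng was listed at 0 in all 3 BBR mice and at 1.19, 0.30 and 0.21 FPKM in SASP mice.

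**Figure D4:**
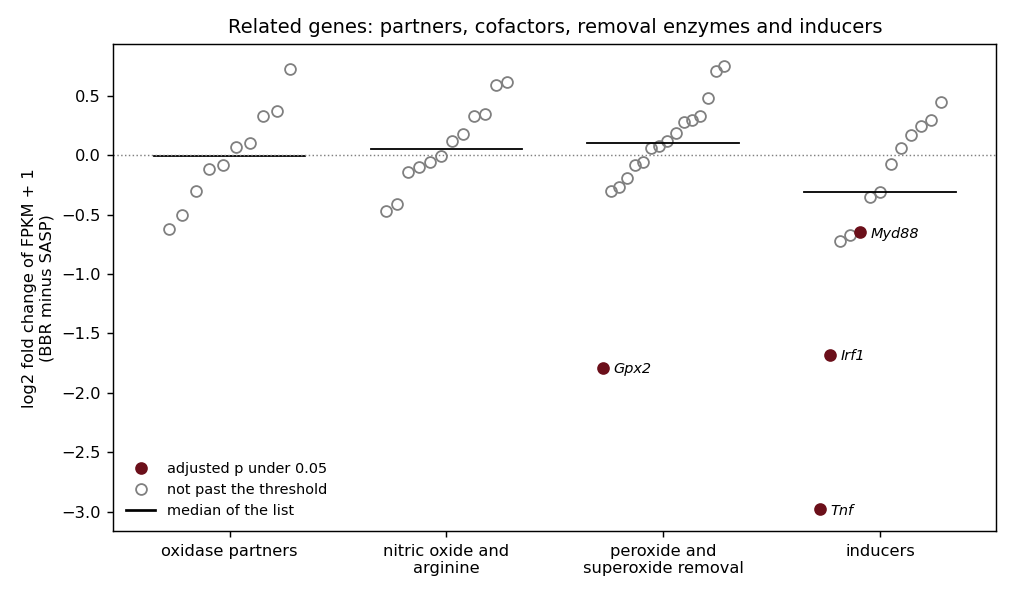
Difference in log2(FPKM + 1) (BBR minus SASP) of the tested genes of 4 related lists, with the median of each list as a line and genes past an adjusted p of 0.05 filled and named. The filled genes, Gpx2, Tnf, Irf1 and Myd88, are all lower in BBR mice.

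Markers of epithelial cells and leukocytes were measured beside these genes. The 10 epithelial markers summed to 8380 to 9170 FPKM in BBR and 8670 to 9940 FPKM in SASP mice. In BBR the keratin Krt18 was higher by 0.75 and Vil1, of the brush border, lower by 0.55 on the log2 scale (limma adjusted p = 0.0163 and 0.0327). Krt20, of mature surface cells, was at -1.18 (adjusted p = 0.0613). Krt20 was at 285, 245 and 551 FPKM (BBR) and 623 to 899 FPKM (SASP), with BBR mouse 3 the highest of its group, as for Duox2. Of 13 macrophage and monocyte markers 12 were tested, with a median of -0.24, and of -0.10 without BBR mouse 3. Cd14, Fcgr1 and Ccr2 were lower in BBR (-1.85, -0.73 and -0.73, limma adjusted p = 0.00891, 0.0281 and 0.0390). They were the 3 of the 12 that passed as lower, and 0 passed as higher, against 608 and 461 of all 12072 genes tested. The list summed to 143 to 195 FPKM in BBR and 262 to 288 FPKM in SASP mice. Most of this difference came from Cd14 (means 24.8 and 92.0 FPKM) and Lyz2 (means 76.9 and 105 FPKM). Of the 12, 3 had values above 0, Mrc1, Csf1r and Adgre1 (0.42, 0.12 and 0.06), and the Mrc1 groups did not overlap (adjusted p = 0.102). These 3 were named after their values were seen. The 6 pan-leukocyte markers summed to 19.3 to 33.5 and 32.5 to 70.5 FPKM, and Cd52, Lcp1 and Coro1a were at -1.04, -0.81 and -1.02. In limma 0 of the 6 passed the adjusted threshold. At an unadjusted p under 0.05 there were 4, beside 3837 of all 12072 genes tested at 0.05 or less.

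Some neutrophil markers were, like Nos2, higher in BBR mouse 3 than in the other BBR mice. S100a8, a calprotectin subunit, had a listed value of 0 in BBR mice 1 and 2, 6.19 FPKM in BBR mouse 3 and 18.5 to 23.1 FPKM in SASP mice (limma adjusted p = 0.0365, and up to 0.132 when BBR mouse 1, BBR mouse 2 or a SASP mouse was left out). With 2 values at 0, its call depended on the added 1, and it was lost with pseudocounts of 0.1 and 0.01 (adjusted p = 0.0642 and 0.0787), with no filter and with either covariate. S100a9 was at 0.11, 0.11 and 5.25 FPKM (BBR) and 6.91 to 10.7 FPKM (SASP). The granule genes Mpo and Ngp, which are transcribed mainly in bone marrow precursors, were listed at 0 to 0.02 and 0 to 0.05 FPKM. The list held 11 genes in the table, of which 5 were tested, with a median of -0.51. In limma 1 of the 5 was called, against 8.86% of all genes tested. Of the 5, Cxcr2 went the other way, at 0.12 (limma adjusted p = 0.693). The list summed to 234, 193 and 568 FPKM in BBR mice 1, 2 and 3 and 357 to 537 FPKM in SASP mice. Nearly all of this was Ly6g, at 190 to 552 FPKM. In BBR mice 1 and 2 Ly6g was at 232 and 190 FPKM, where S100a8 was listed at 0. The sum is therefore mainly a value of Ly6g and does not stand for the other markers. Mpo, Ngp, Ly6g and Cxcr2 were not named by smallest p. The part of these cells in the results for Nos2 and the oxidases was not tested. Of the colorectal markers, Cdx2 was higher in BBR by 1.5 on the log2 scale (limma adjusted p = 0.0422), and Car1 and Guca2a were at 2.48 and 1.51 (adjusted p = 0.0950 and 0.222). The call of Cd14 was lost without SASP mouse 3 (adjusted p = 0.0536). Those of Krt18, Vil1, Fcgr1, Ccr2 and Cdx2 were lost without 2 or more of the mice other than BBR mouse 3, with adjusted p-values of up to 0.0927, 0.139, 0.0883, 0.156 and 0.163. Fcgr1 fell below the filter when any SASP mouse was left out, so its value covers only fits without a BBR mouse. With the smooth muscle covariate none of the 11 calls named among the related genes and markers was kept (0 of 11, limma adjusted p of 0.0986 to 0.303). That fit called 18 of all genes tested and cannot separate the smooth muscle markers from the drug. With the epithelial covariate those of Vil1, Fcgr1, Ccr2 and Cdx2 were lost, and with no filter those of Vil1, Ccr2 and Cdx2.

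With array quality weights, which give samples far from their group less influence, 8 of the 9 genes passed the threshold, against 59.0% of all genes tested, so most genes of any kind passed in this fit. Noxo1 was the 1 that did not pass, and Noxa1 passed as higher in BBR.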

How the data were processed

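RNA of colorectal tissue from 3 BBR and 3 SASP mice was sequenced. The deposited values are FPKM per gene, which the authors computed with RSEM 1.2.12 after Bowtie2 2.2.5 alignment, and the submitters' processing notes name build mm9. Labels name an Illumina kit, and the methods rRNA depletion and another sequencer. Annotation and strand setting are not given in the sources used here. Groups follow the treatment label, and replicate numbers follow accession order. Litters of the mice are not given in the sources used here. The p-values set each group difference against the spread between these samples only.

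log2(FPKM + 1) of the 12072 genes that passed the filter was fitted in limma 3.58.1 (R 4.3.3, eBayes with trend). Two-sided p-values were Benjamini-Hochberg adjusted over these genes, threshold 0.05. Adding 1 understates changes of low genes. The fit was tested on simulated data. Depth was estimated by taking genes detected in a single sample, with a GENCODE M21 transcript under 1500 bases, as 1 read each, so read numbers are approximate.

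Members and lists were chosen with earlier results of these data known, and 2 listed genes are not reported here and were left out of the list counts. Named were the 9 members, listed genes past the threshold, up to 3 more per related list and per marker list by smallest p, and the 3 genes most like Duox2, Nos2, Nox1 and Cybb. Alternatives were other pseudocounts, filters, scalings, thresholds and sample weights, no trend, a smooth muscle or epithelial covariate, and each mouse left out.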

Additional observations from a re-analysis of the deposited data

How the results depend on the processing

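No gene of the set had a call to keep across alternatives, because none was called in the main fit with all mice, equal weights and no rescaling. The count of called members was 1 with median-ratio scaling, 8 with array weights and 6 at an unadjusted p of at most 0.05, and leaving out each mouse in turn gave 0 to 5, the 5 without BBR mouse 3. The median log2 fold change of the set was -1.01 and -1.07 with pseudocounts of 0.1 and 0.01, -2.06 after a filter on mean FPKM of 5, which removed Cybb and Ncf1, and -0.31 with the smooth muscle covariate. Across left-out mice it ranged from -0.82 to -0.50. With array weights Duox2, Duoxa2, Nox1, Nos2, Cybb, Cyba, Ncf1 and Noxa1 passed at -2.82, -3.20, -0.96, -5.61, -0.74, -0.41, -0.58 and 0.62, and Nos2 also passed with median-ratio scaling (-4.39).

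Across left-out mice Duox2 ranged from -2.95 to -1.55, Duoxa2 from -3.66 to -1.49, Nox1 from -2.68 to -1.09, Nos2 from -5.76 to -3.49, Cyba from -0.39 to -0.22 and Noxa1 from -0.01 to 0.28. Duox2, Duoxa2, Nos2, Nox1 and Cyba passed without BBR mouse 3. Of 142 alternative fold changes of the members, 1 changed sign, that of Noxa1.

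The 1069 called genes (43.1% higher in BBR) became 608 with no filter, 1737 with quantile normalization, 1683 with median-ratio scaling (29.6% higher), 7126 with array weights (65.1% higher), 18 and 150 with the smooth muscle and epithelial covariates, 3837 at an unadjusted p of at most 0.05 and 109 at an adjusted p under 0.01. Across left-out mice the count ranged from 51 without SASP mouse 3 to 4018 without BBR mouse 3. Median-ratio scaling moved the median of all genes from 0.10 to -0.02. It also took the medians of the nitric oxide, peroxide removal and epithelial lists to -0.08, -0.03 and -0.10. The oxidase partner median was between -0.07 and 0.09 across left-out mice, highest without BBR mouse 3, and the smooth muscle median was -0.02 with its own score as a covariate. The cause was not tested. No paired analysis was possible because the replicate numbers follow accession order and pair no mice. Depth limits Cybb and Ncf1 (58 to 237 and 58 to 145 reads) and the lowest Nos2 and Nox1 values (20 and 15 reads).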
